A study of Caenorhabditis elegans with 4 samples.

Results

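Chromosome III of the nematode Caenorhabditis elegans held 478 of the 2236 peaks of HLH-30 binding that a ChIP-seq experiment (chromatin immunoprecipitation followed by sequencing) gave in its combined list, or 21.4%. They are all peaks whose listed sequence name was III, so they were chosen by position alone. The lists of the single ChIP samples held 155 peaks on this chromosome of 649 in all (replicate 1) and 296 of 1338 (replicate 2). The study had 2 ChIP samples and 2 samples of input DNA. All came from strain OP433 at the late embryo stage, from hermaphrodites grown at 20 °C. The genotype of every sample was unc-119(ed3) III with the transgene wgIs433, which carries hlh-30::TY1 EGFP FLAG and unc-119(+). The transgene was made by bombardment, so the bound protein was a tagged fusion expressed from added DNA, and input DNA from the same strain was the control. The mutated copy of unc-119 and the peaks described here lie on the same chromosome, and the transgene adds a further copy of that gene. Whether this copy affects any peak was not tested.

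The transcription factor HLH-30 belongs to the basic helix-loop-helix leucine zipper family and is the worm counterpart of mammalian TFEB. Factors of this family bind as dimers to short E-box motifs in DNA, and HLH-30 is known for turning on genes of autophagy, the lysosome and fat breakdown, above all when food is short. Chromosome III is one of the autosomes of the worm. Worm chromosomes have no single centromere. Genes lie more densely in the centre of an autosome, and the arms hold more repeats and recombine more often.

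Each peak was deposited with a start, an end and a value called a q-value. All 929 values on chromosome III, over the 3 lists, equalled the lower binomial tail (probability 0.5) of exactly 1 pair of whole numbers among totals below 1500. Here the larger of the pair is taken as the ChIP tags and the smaller as the control tags, after the published PeakSeq method. No file names these quantities. Enrichment is ChIP tags divided by control tags, and its 95% interval is an exact Clopper-Pearson interval that covers counting error only. The interval treats the control tags as raw counts. Whether they were scaled to the ChIP library is not stated, and if they were, the interval is only approximate. Strength is −log10 of the deposited value. A peak with 10 control tags needed 35 ChIP tags to be listed in the combined list, an enrichment of 3.50-fold, and one with 40 control tags needed 80, or 2.00-fold. Weak binding at sites with few control tags could therefore go unlisted. The total reads of each library are unknown, and so is the depth. Peaks of one list share a library and are not replicates, and both ChIP samples belong to 1 condition, so no test over samples was possible. Shares are given with exact Clopper-Pearson intervals as descriptions. All positions are 1-based coordinates of the WormBase WS180 build.

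The median peak on chromosome III had 65 ChIP tags, with quartiles of 47 and 94.75. Its control tags were 17, with quartiles of 12 and 24, and its enrichment was 4.0-fold (3.24 and 5.06). The range was wide. The least enriched peak, at III 1299307 to 1300472, had 129 ChIP tags against 75 control tags, or 1.72-fold (1.28 to 2.32). The most enriched reached 23.9-fold. Enrichment was at least 10-fold at 18 peaks and at least 5-fold at 126 of the 478 (26.4%). The 18 peaks above 10-fold were all listed in both replicates, and they lay along the whole chromosome, with 5 in the left, 6 in the middle and 7 in the right of 3 equal parts. Their control level was lower than that of the chromosome's peaks at large, with medians of 39.8 and 49.9 control tags per kb. A low control level raises this ratio by construction.

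The strongest site on chromosome III was a 556 bp peak at III 10758923 to 10759478. In the combined list it had 549 ChIP tags against 23 of the control, 217 against 12 in replicate 1 and 377 against 11 in replicate 2. These gave 23.9-fold (15.7 to 38.0), 18.1-fold (10.1 to 35.5) and 34.3-fold (18.9 to 69.2). The next was a 736 bp peak at III 3801198 to 3801933, where 523 ChIP tags stood against 40 in the combined list, 214 against 19 in replicate 1 and 365 against 18 in replicate 2. That is 11.3-fold for replicate 1 (interval 7.04 to 19.1) and 20.3-fold for replicate 2 (12.6 to 34.6). At both sites the control tags of the replicates were nearly the same and the ChIP tags were higher in replicate 2. The intervals of both replicates overlapped at each, which by itself does not measure their difference (below).

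A pair of strong peaks lay close together near the left end of the chromosome. The first, at III 349446 to 350521, spanned 1076 bp, with 549 ChIP tags against 59, or 9.31-fold (7.10 to 12.4). The second, at III 354482 to 355362, held 416 against 57, or 7.30-fold (5.52 to 9.80). These peaks were enriched 7.15-fold and 5.23-fold by the counts of replicate 1, against 13.3-fold and 10.0-fold by those of replicate 2. They had the lowest enrichment of the 8 strongest peaks, and the most control tags. Next in strength after the first of them, the peak at III 4281860 to 4282563, had 475 ChIP tags against 38 and was enriched 12.5-fold (8.97 to 17.9), with 7.90-fold for replicate 1 and 17.1-fold for replicate 2.

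Other peaks joined high ratios to control counts below the chromosome's median. The peak at III 7272022 to 7272464 had 298 ChIP tags against 16, or 18.6-fold (11.3 to 33.0), and was second in enrichment on the chromosome. In replicate 1 it held 129 against 8, and in replicate 2 it held 204 against 8. The peak at III 1080434 to 1080906 was the one most alike in both replicates among the 20 strongest. It held 123 ChIP tags against 6 in replicate 1 (20.5-fold, 9.15 to 56.9) and 110 against 5 in replicate 2 (22-fold, 9.15 to 69.1). The combined list gave it 16.7-fold (9.56 to 31.9), below both. A further peak at III 11774407 to 11774787 was enriched 16.1-fold (8.26 to 35.9) but ranked 33 in strength, with 68 tags against 4 in replicate 1 and 77 against 4 in replicate 2. The intervals of these sites overlap in each list.

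The other 13 of the 20 strongest sites were found along the whole chromosome. In order of strength they included III 4649217 to 4649770 (13.6-fold), III 7335128 to 7335583 (11.2-fold), III 12583307 to 12583810 (9.67-fold), III 4899598 to 4900120 (10.8-fold) and III 6302952 to 6303576 (9.50-fold). After them came III 13062281 to 13063222 (8.13-fold), III 7155333 to 7155987 (10.2-fold), III 9765299 to 9765898 (8.40-fold) and III 9053227 to 9054192 (6.35-fold). The last of the 20 strongest were III 10599578 to 10599979 (14.1-fold), III 623746 to 624197 (12.6-fold), III 12598262 to 12598706 (12-fold) and III 6420800 to 6421489 (7.10-fold). The 20 ran from 6.35-fold to 23.9-fold in the combined list, with a median of 11-fold. Replicate 1 gave 5.23-fold to 20.5-fold with a median of 8.05-fold, and replicate 2 gave 10.0-fold to 34.3-fold with a median of 14.9-fold. Replicate 2 was higher at 20 of 20, by a median factor of 1.83 (1.07 to 2.17). The interval of replicate 2 lay wholly above that of replicate 1 at 0 of the 20. Control tags were much alike in both replicates, and each interval counts their error separately. If the replicates shared a control, which was not tested, part of that error is common to both. The overlap of intervals therefore does not measure the difference between replicates. Of the 20, 6 lay in the left part, 8 in the middle and 6 in the right.

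**Figure D1:**
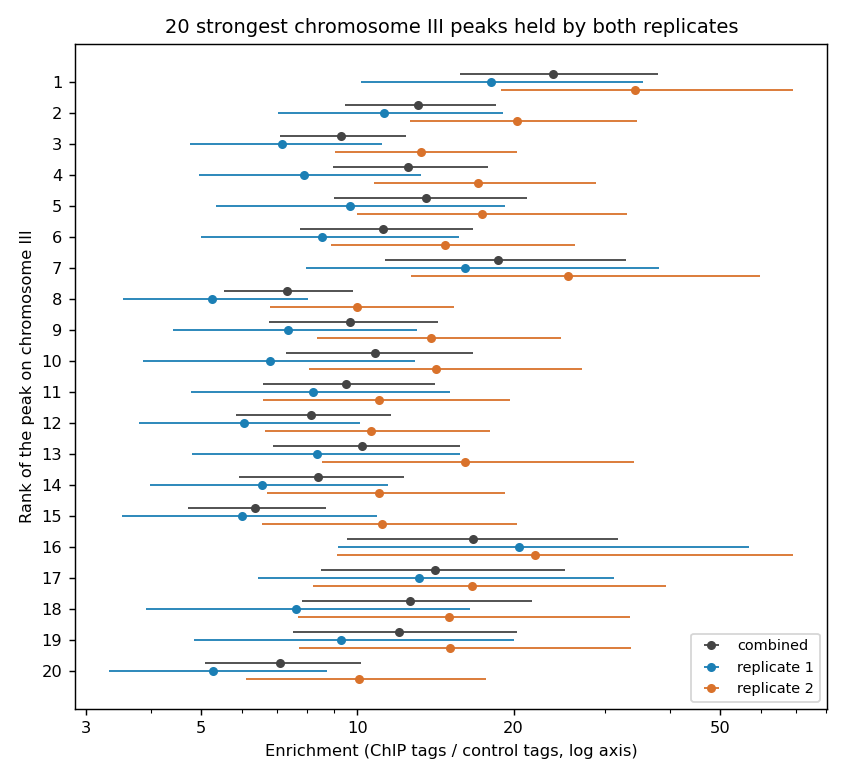
Enrichment (ChIP tags over control tags, log axis) of the 20 strongest chromosome III peaks, ordered by rank, in the combined list and in each replicate, with exact 95% counting intervals as bars. Replicate 2 lies to the right of replicate 1 at 20 of 20 peaks, and the intervals of both replicates overlap at every one of them. Control tags are much alike in both replicates, so this overlap does not measure the difference between them.

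Most peaks found on chromosome III in replicate 1 were also found in replicate 2. Replicate 2 had a peak overlapping by at least 1 bp for 141 of the 155, or 91.0% (95% interval 85.3 to 95), where the share over the whole list was 93.7%. In the other direction 141 of 296 were shared, or 47.6% (41.8 to 53.5), where the whole list gave 45.0%. The shares on the other 5 chromosomes together were 94.5% (92.1 to 96.4) and 44.2% (41.2 to 47.3). Chromosome III was thus close to the background in both directions. Since replicate 2 listed 296 peaks and replicate 1 listed 155, each share is tied to the length of the other list.

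Peaks without a partner in the other replicate were weak by strength. Their median strength was 4.41 in replicate 1, against 6.78 for shared peaks there, and 5.38 against 12.1 in replicate 2. Median enrichment was not lower in replicate 1, at 5.23-fold against 5.14-fold for shared peaks. In replicate 2 it was lower, at 4.44-fold against 7.0-fold. The 84 strongest replicate 1 peaks on chromosome III all had a partner. The first without one ranked 85th and was the only one of the 14 with a strength of at least 6. It lay at III 1299608 to 1300318 and had 86 ChIP tags against 33, or 2.61-fold (1.73 to 4.02), inside the combined peak that had the lowest enrichment of the chromosome. In replicate 2 the 66 strongest peaks all had a partner, and 56 of the 155 without one had a strength of at least 6. The strongest of these lay at III 1618942 to 1619287, with 60 ChIP tags against 5, or 12-fold (4.87 to 38.3). The next lay at III 6452690 to 6453040 (66 against 8, 8.25-fold) and III 8903984 to 8904349 (63 against 8, 7.88-fold). All 3 were present in the combined list, at 7.55-fold, 5.32-fold and 6.0-fold.

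The combined list on chromosome III divided into peaks that both replicates supported and a large remainder. Both replicates held 141 of the 478 peaks, or 29.5% (25.4 to 33.8), against 26.8% of the whole list. Replicate 2 alone held 140, or 29.3% (25.2 to 33.6), against 30.7% of the whole list. Replicate 1 alone held 14, or 2.93% (1.61 to 4.87), against 1.74%. Neither held the other 183, or 38.3% (33.9 to 42.8), against 40.7%. These shares are near those of the whole list. All 155 peaks of replicate 1 overlapped a combined peak, while 14 of replicate 2 did not.

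Support followed strength, in part by construction. Combined tags were close to those of the replicates added together (below), so a strong combined peak tends to be listed in each replicate. The same holds for the differences between support classes given below. The 73 strongest combined peaks on the chromosome were all held by both replicates. The strongest that was not lay at III 7116199 to 7116900, held by replicate 2 alone, with 140 ChIP tags against 30, or 4.67-fold (3.13 to 7.17). After it came III 5715207 to 5715822 (4.28-fold) and III 1054012 to 1054455 (6.33-fold), also of replicate 2 alone. The strongest held by replicate 1 alone were III 6344523 to 6344993 (4.58-fold), III 3037231 to 3037646 (4.05-fold) and III 6453625 to 6453976 (3.75-fold). The strongest held by neither were III 870588 to 871020 (96 against 24, 4.0-fold), III 4150893 to 4151276 (4.25-fold) and III 5642725 to 5643034 (4.0-fold).

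For the peaks of both replicates, median enrichment was 5.79-fold (4.62 and 7.69 as quartiles), with 129 ChIP tags and a width of 428 bp. Those held by neither had 3.50-fold (2.95 and 4.13), 46 ChIP tags and 269 bp. Peaks of replicate 2 alone had 3.67-fold, 66 ChIP tags and 335 bp. Control tags per kb of peak differed little among these 3 classes, with medians of 48.8, 48.4 and 53.2. All 36 peaks with 200 or more ChIP tags were held by both, as were 59 of the 74 with 100 or more but under 200 (79.7%, 68.8 to 88.2). Of the 234 peaks with 50 to 99 tags, 43 were held by both (18.4%, 13.6 to 23.9), and of the 134 with fewer, 3 were (2.24%). On the other 5 chromosomes the same bands, from most tags to fewest, gave 95.8%, 61.0% (55.9 to 65.9), 12.7% (10.5 to 15.1) and 0%. The differences between III and the others were not tested. Where a peak had just 1 partner in each replicate list (140 peaks), the ratio of the combined ChIP tags to those of replicates 1 and 2 added together had a median of 0.992 (0.947 and 1.07). For control tags this ratio was 1.0 (1.0 and 1.11). Whether the combined list used reads other than those of the replicates was not tested.

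**Figure D2:**
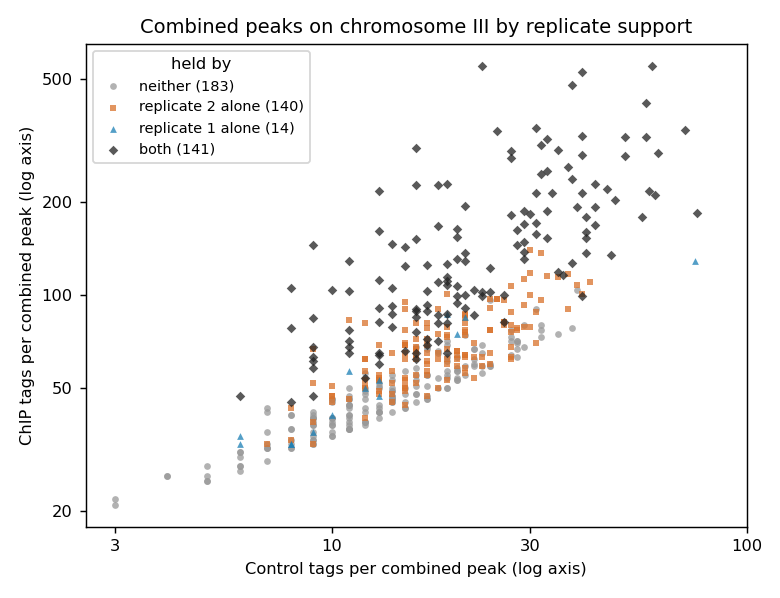
Control tags (x) and ChIP tags (y) of each of the 478 combined peaks on chromosome III, both on log axes, with symbols for the replicates that held the peak. The 36 peaks with 200 or more ChIP tags are all held by both replicates, against 95.8% of such peaks on the other 5 chromosomes. The lower edge of the cloud is the limit below which no peak was listed.

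Positions were much alike at the sites that both replicates listed. All 141 shared peaks had a single partner. Their centres differed by a median of 19.5 bp (quartiles 10.0 and 41.5), by at most 100 bp at 130 of 141, and by 223 bp at most. Replicate 2 peaks were wider at 117 of 141, by a median of 56 bp. Across the 141 pairs, strength correlated with a Pearson's r of 0.93 and a Spearman's rho of 0.80. Leaving out the 2 peaks farthest from replicate 1's median gave 0.89 and 0.79. These are descriptions, since the peaks of a list share a library. The control tags of both lists were more alike still, with a rho of 0.96, and their part in the correlation of strength was not tested. Enrichment gave a rho of 0.80.

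Enrichment was higher in replicate 2 at most sites. At the 74 pairs whose edges differed by at most 80 bp in all, replicate 2 was higher at 68, where all such pairs of the genome gave 91.8%, equal at 1 and lower at 5. The replicates' medians were 5.42-fold and 7.23-fold, and the ratio between them at a pair had a median of 1.38 (1.14 and 1.58 as quartiles). The other 5 chromosomes gave 1.39 (1.15 and 1.63). The median control tags were 8 in each replicate, equal at 27 of the 74 pairs and within 3 at 73. Median ChIP tags were 46.5 and 58. At a pair, the ratio of replicate 2 to replicate 1 had a median of 1.31 for ChIP tags and 0.923 for control tags. Both thus entered the ratio of enrichment. The depth of each ChIP library and any scaling of the control are unknown, so their part in this ratio was not tested. Among the 74 pairs the largest ratio was 2.09, at III 4899661 to 4900107 of replicate 1. ChIP tags there were 95 in replicate 1 and 184 in replicate 2. A pair beyond the edge limit, at III 3271724 to 3272002 of replicate 1, had a ratio of 2.60. The lowest ratios beyond it were 0.50 at III 2528668 to 2528929 (8.75-fold and 4.38-fold) and 0.707 at III 86414 to 86652. Over all 141 pairs with a single partner, replicate 2 was higher at 131.

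Among the pairs whose edges differed by at most 80 bp in all, the clearest exception was a site with a high control level. At III 931228 to 931776 replicate 1 held 145 ChIP tags against 41 control tags (3.54-fold) and replicate 2 held 95 against 37 (2.57-fold), a ratio of 0.726. The combined peak there held 184 ChIP tags against 76, or 2.42-fold (1.84 to 3.21). Its 138 control tags per kb were the highest on the chromosome, where the median was 49.9 and the next highest was 96.9. The other 4 pairs within this edge limit that were lower in replicate 2 had ratios from 0.805 to 0.968. At III 6278472 to 6278709 of replicate 1, ChIP tags were 41 in replicate 1 and 33 in replicate 2, with 8 control tags in each. At III 11825594 to 11825877 they were 47 and 44, with 5 control tags in each, or 9.40-fold and 8.80-fold. Whether the control level at III 931228 bears on its order was not tested.

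**Figure D3:**
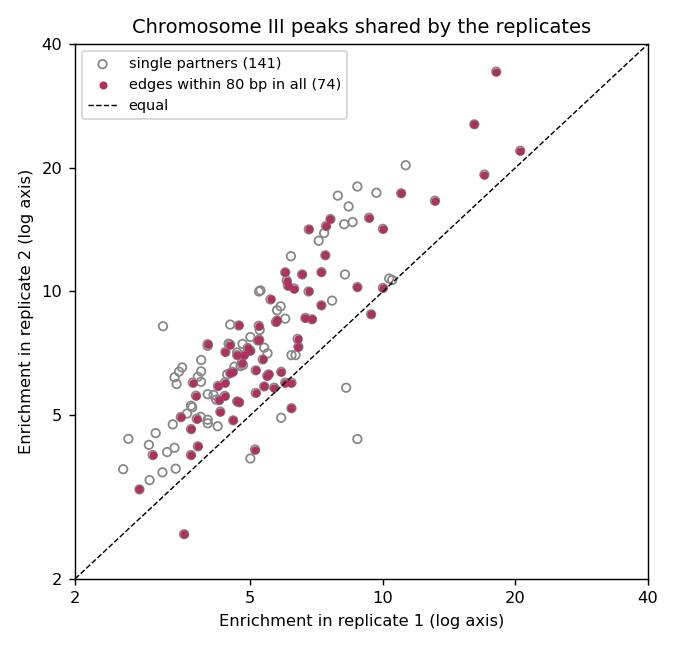
Enrichment in replicate 1 (x) and replicate 2 (y) of chromosome III peaks, both on log axes. Open circles are the 141 pairs with a single partner, filled points the 74 pairs whose edges differ by at most 80 bp in all, and the dashed line marks equal enrichment. Most points lie above the line, 68 of the 74 filled ones.

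Peaks were found along the whole of chromosome III, from a first start at 25549 to a last end at 13771391, and somewhat more often in its centre. With the length divided into 3 equal parts, the left held 139 combined peaks (29.1%, 25.04 to 33.4), the middle 185 (38.7%, 34.3 to 43.2) and the right 154 (32.2%, 28.04 to 36.6), where the length gives 33.3% to each. Density was 30.3, 40.3 and 33.5 peaks per Mb. The replicates gave smaller surpluses in the middle, 56 of 155 peaks in replicate 1 (36.1%, 28.6 to 44.2) and 111 of 296 in replicate 2 (37.5%, 32.0 to 43.3). Both intervals include the share of length. Among peaks held by both replicates the middle held 51 of 141. Of the 50 strongest combined peaks, 13, 20 and 17 lay in the left, middle and right.

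Control levels on III were also highest in the middle. Median control tags per kb of combined peak were 44.6 in the left, 54.1 in the middle and 47.5 in the right, and median enrichment was 4.13-fold, 3.82-fold and 4.07-fold. In replicate 1 the control levels of the parts were 30.1, 30.2 and 27.9, and in replicate 2 they were 25.1, 27.8 and 24.1. A higher control level also went with the middle on each of the other 5 chromosomes, at 63.8 against 54.9 and 53.3 on I, 52.2 against 43.5 and 44.9 on II, 88.1 against 68.1 and 78 on IV, 51.6 against 45.1 and 42.5 on V, and 57.2 against 52.2 and 54.0 on X. Density did not follow control level everywhere: the middle was the densest part on I, II and V, but on X it had 24.1 peaks per Mb against 26.5 and 27.7, and on IV it had 8.83 against 10.7 in the left and 5.19 in the right. These levels cover listed peaks only. Their part in the number of peaks listed was not tested. The share held by both replicates was alike in the 3 parts, at 30.2%, 27.6% and 31.2%.

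A finer division gave high counts at more than 1 place, but few stood clear of the 10% of length in each part. Among 10 equal parts, part 4 was the densest in all 3 lists, with 68 combined peaks (49.4 per Mb), 22 in replicate 1 and 43 in replicate 2. Part 10, at the right end, was next in the combined list with 58 (42.1 per Mb), and it held 20 and 37 in the replicates. Part 6, in the centre, held 57 (41.4 per Mb), and its 21 and 41 in the replicates were above those of part 10. In the combined list only part 4 had an interval wholly above 10% (14.2%, 11.2 to 17.7). The intervals of part 10 (9.34 to 15.4) and part 6 (9.16 to 15.2) included 10%. In replicate 2 parts 4 (10.7 to 19.1) and 6 (10.1 to 18.3) lay above it, and in replicate 1 neither did. Part 10 included 10% in both replicates. Part 2 was the sparsest in the combined list and in replicate 1, with 30 peaks (21.8 per Mb) and 7. Part 9, just inside the dense right end, held 34 combined peaks (24.7 per Mb). The right end was thus denser than the parts beside it. Its control level, 46.9 tags per kb of combined peak, was below that of part 4 (54.9) and above that of part 9 (40.4).

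**Figure D4:**
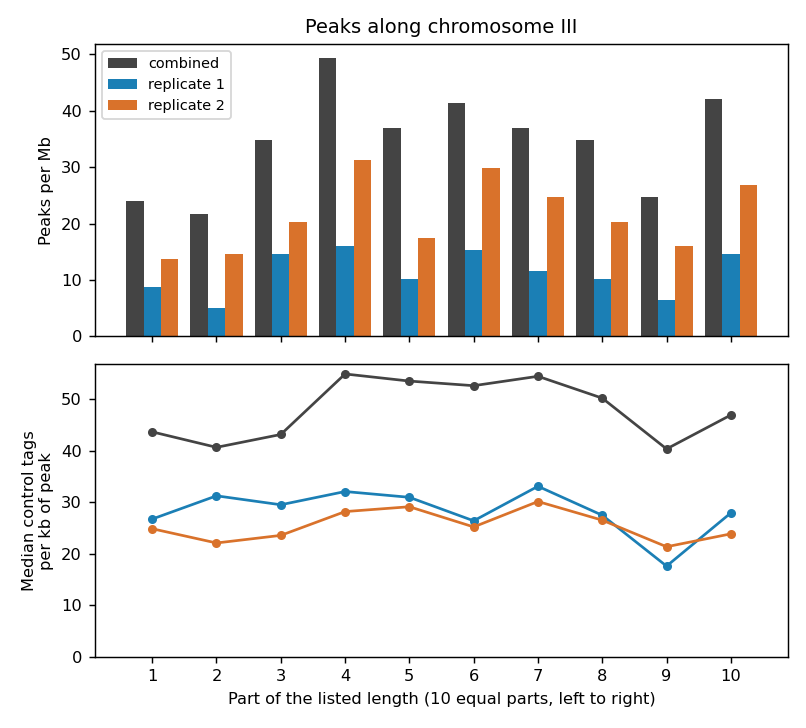
Upper panel, peaks per Mb in 10 equal parts of the listed length of chromosome III, from left to right, as bars for each list. Lower panel, the median control tags per kb of peak in the same parts. Part 4 is the densest in each list, at 49.4 peaks per Mb in the combined one, where part 10 reaches 42.1 and part 6 reaches 41.4.

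The densest 1-Mb stretch of the chromosome began with the peak at III 3797041 and ended with the one that closed at 4796889. It held 56 combined peaks, 11.7% of the chromosome's, where an average stretch of this length held 34.7. Both replicates held 17 of them, and their median enrichment was 4.0-fold, the same as over the chromosome. The densest stretches of the replicates overlapped it, with 20 peaks between 4196617 and 5172775 in replicate 1 and 40 peaks between 4049208 and 5047408 in replicate 2. The stretches were picked for their counts, so these are descriptions. The densest 1-Mb stretches of the other chromosomes held 20 (IV) to 45 (II) combined peaks.

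Among stretches of up to 500 kb, the densest segment ran from III 4087593 to 4568855 and held 32 peaks, of which both replicates held 10 and neither held 8. Its strongest peaks were III 4281860 to 4282563, named above, III 4237578 to 4238149 (7.61-fold, 5.28 to 11.3) and III 4280337 to 4281240 (4.21-fold, 3.06 to 5.89). The second segment ran from III 5499899 to 5983050 with 30 peaks. Of these, both replicates held 4 and neither held 15. Over the chromosome the shares were 29.5% held by both and 38.3% by neither, and over the whole list 26.8% and 40.7%. The counts per segment are small, and differences between segments were not tested. Its strongest peaks were III 5939477 to 5940841 (5.67-fold, 4.27 to 7.65), III 5502887 to 5503598 (4.37-fold) and III 5499899 to 5500259 (6.63-fold). The third ran from III 7940832 to 8425363 with 27 peaks, 8 of them held by both, led by III 8227388 to 8227927 (7.69-fold), III 8417100 to 8417885 (5.33-fold) and III 8093041 to 8093385 (9.53-fold). Median enrichment was 4.02-fold, 3.61-fold and 4.17-fold in the 3 segments. Across the 27 full bins of 500 kb, counts ran from 6 to 30 around a median of 17. The emptiest, from III 1000001 to 1500000, was also the emptiest of replicate 1 and of replicate 2 (2 and 3 peaks, the former tied with 2 other full bins), yet it holds the 16.7-fold peak at 1080434. The fullest bin differed among the lists, beginning at III 5500001 in the combined list, 12500001 in replicate 1 and 4000001 in replicate 2. Over 500 kb from the start of each segment, replicate 1 listed 10, 5 and 9 peaks and replicate 2 listed 23, 14 and 16. The densest 500 kb of replicate 1 lay outside the segments, with 15 peaks from III 12575876 to 13071729. That of replicate 2 overlapped the first segment, with 25 peaks from III 4193642 to 4689981.

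Neighbouring peaks were a median of 15839 bp apart, centre to centre (quartiles 4053 and 40927). The mean distance was 28817 bp, and the median was 0.55 times the mean. On the other chromosomes this figure was 0.565 (V) to 0.641 (IV). Of the 477 neighbouring pairs, 67 (14%) lay within 2000 bp, 137 (28.7%) within 5000 bp and 26 lay over 100000 bp apart. The longest gap, 270219 bp between edges, ran from the peak at III 9083175 to 9083494 (2.26-fold) to the one at III 9353714 to 9354096 (3.21-fold), both held by replicate 2 alone. The closest pair, at III 8741480 to 8741673 and III 8741955 to 8742154, had centres 478 bp apart, and neither peak was held by a replicate. The median distance on the other chromosomes was 21597 bp (II) to 77582 bp (IV). Chromosome III had the most peaks per Mb of the 6, 34.7, and its shorter distances come with that density.

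**Figure D5:**
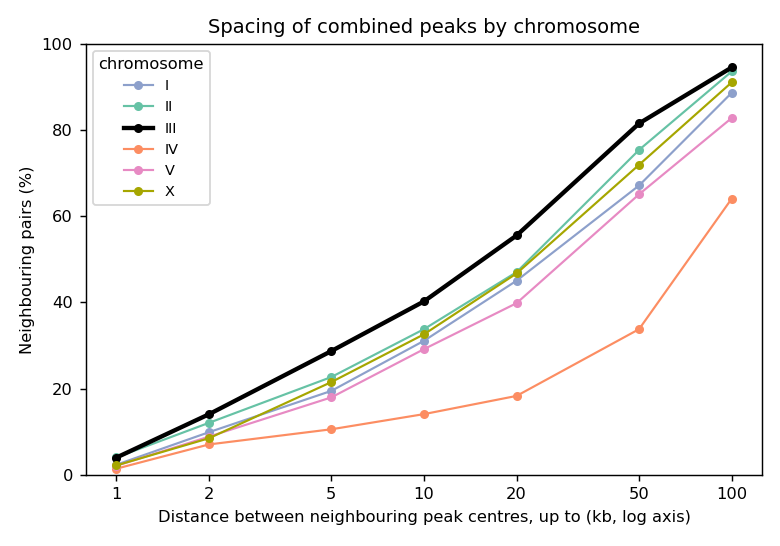
Share of neighbouring combined peaks whose centres lie up to a given distance apart (kb, log axis), 1 line per chromosome. Chromosome III, the thick line, is the highest at 2 kb (14%) and at 5 kb (28.7%).

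Close groups were common on the chromosome. A neighbour lay within 2000 bp of 122 of the 478 peaks, or 25.5% (21.7 to 29.7), against 19.1% of the whole list and 17.3% (15.6 to 19.1) on the other 5 chromosomes. Replicate 1 gave 14.2% on III and 11.9% elsewhere, and replicate 2 gave 18.9% and 15.6%. Chromosome II was above III in both replicate lists, at 22.2% and 24.7%, and V was at 14.7% in replicate 1. Yet II had fewer peaks per Mb than III, 7.08 against 11.3 in replicate 1 and 16.2 against 21.5 in replicate 2. These differences were not tested, and a denser list has nearer neighbours by construction. The 122 peaks formed 55 groups, 44 of 2 peaks, 10 of 3 and 1 of 4. Of the 55 groups, 24 held exactly 1 peak supported by both replicates, 11 held more and 20 held none. Grouped peaks were held by both replicates at 37.7% (29.1 to 46.9) and lone peaks at 26.7% (22.2 to 31.6). Median enrichment was 3.89-fold in grouped peaks and 4.0-fold in lone ones. Grouped peaks had more ChIP tags, with a median of 66.5 against 63 and an upper quartile of 120.5 against 90. They were also wider, at a median of 380.5 bp against 316.5 bp. Support rose with ChIP tags (above), so grouping and tag number cannot be told apart in these shares. The same shares over the whole list are not given here.

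Some of the larger groups had 1 strong peak, held by both replicates, with weak neighbours. At III 12368331 to 12370413 the middle peak was enriched 6.70-fold and held by both replicates, and those beside it were enriched 3.50-fold and 3.21-fold and held by neither. At III 9456060 to 9459409 the first peak was enriched 6.14-fold and held by both, and the others, at 2.41-fold and 2.78-fold, by neither. Other groups had 2 peaks held by both. The one at III 13060956 to 13064989 held the strongest peak of any group of 3 or more, with 5.06-fold and 8.13-fold held by both and 3.48-fold by replicate 2 alone. Further cases were III 1923401 to 1926739, with 3.22-fold and 4.70-fold held by both and 4.13-fold by replicate 2 alone, and III 5499899 to 5503598, with 6.63-fold and 4.37-fold held by both and 3.33-fold by replicate 2 alone. At III 12614181 to 12617217 the outer peaks, 3.74-fold and 4.52-fold, were held by both and the middle one, 2.05-fold, by neither.

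The remaining groups of 3 ranged from 1 peak held by both replicates to none. The group at III 4947227 to 4950596 had 5.52-fold, 3.00-fold and 3.21-fold, at III 8354593 to 8358444 there were 5.86-fold, 2.46-fold and 2.95-fold, and at III 8794690 to 8797503 there were 3.15-fold, 3.50-fold and 2.30-fold. None of the peaks at III 3913873 to 3916906 was held by a replicate, with 3.31-fold, 2.63-fold and 4.0-fold. The only group of 4, at III 13717420 to 13721457 near the right end, had 3.53-fold, 3.73-fold, 2.65-fold and 3.30-fold, of which the second was held by both replicates. Whether close peaks are separate sites or 1 broad site that the caller divided was not tested.

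Peaks on chromosome III were short, with a median width of 330 bp in the combined list (quartiles 265 and 429.75), 324 bp in replicate 1 and 357 bp in replicate 2, and together they covered 182 kb. The other 5 chromosomes gave 357, 350 and 387 bp. The widest, 1365 bp at III 5939477 to 5940841, was the only combined peak of the chromosome that overlapped 2 peaks of a replicate. It held 323 ChIP tags against 57. The narrowest, 52 bp at III 10931794 to 10931845, held 22 ChIP tags against 3, or 7.33-fold (2.20 to 38.3), and the next, 79 bp at III 10919652 to 10919730, held 21 against 3. These were neighbours in the list, 12128.5 bp apart, and neither replicate held them.

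Beside the other 5 chromosomes pooled, chromosome III had higher median enrichment in each list, as a description with no test. In the combined list its median was 4.0-fold, against 3.60-fold on the other 5 chromosomes. Replicate 1 gave 5.14-fold against 4.43-fold, and replicate 2 gave 5.38-fold against 4.72-fold. The share of peaks enriched at least 5-fold was 26.4% against 21.05%, 53.5% against 37.4% and 57.8% against 44.6%. Control tags per kb of peak were at the same time lower on III, at 49.9 against 52.9, 29.3 against 32.8 and 25.6 against 28.1, and ChIP tags per kb were nearly equal, at 192 against 189, 140 against 145 and 135 against 135. The higher ratio and the lower control level cannot be told apart in listed peaks. Chromosomes II and V, whose control levels were below that of III in the combined list (47.5 and 46.6), had medians of 3.88-fold and 3.77-fold there. They were close to III by other measures: 25.9% and 25.97% of their combined peaks were enriched at least 5-fold, and the replicate 2 median on II was 5.33-fold. The share enriched at least 10-fold in replicate 2 was higher on V (14.5%) than on III (12.5%).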

How the data were processed

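ChIP-seq with anti-GFP antibodies was run on 2 samples, with 2 input samples, per the labels' protocols. Per the file headers, the peaks are on the WormBase WS180 build and PeakSeq is named as their source. For the aligner, the PeakSeq settings and how the combined list was made: not given in the sources used here. The authors deposited 1 q-value (p-value) per peak, as a peak list for each ChIP sample and a combined list. Files of input samples were not used here.

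Tag pairs were found by matching each value to binomial tails within a relative tolerance of 1e-09. The search covered totals below 1500, and up to 40000 for values it did not match, none of them on chromosome III. After each value on III was raised by a relative 1e-05, 0 of 929 matched. Peaks were shared at an overlap of 1 bp. Chromosome length was the end of the last listed peak. Grouped peaks had centres within 2000 bp of each other. Python 3.11.15, numpy 2.4.6, scipy 1.17.1 and pandas 2.3.3 were used, and the steps were tested on simulated data.

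The regions named are the 20 strongest combined peaks held by both replicates, the strongest of each segment and support class, the largest groups, the extremes of width and gap, and the strongest unshared replicate peaks. Peaks named for their enrichment, control level or replicate ratio, and the closest pair, were chosen after their values were seen. The members, lists and measures were chosen with earlier results of these data known. Separate cultures are not stated for the replicates, so their spread may be technical. Genes near the peaks and sequences of the peaks were not analysed here, for want of a WS180 genome.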

Additional observations from a re-analysis of the deposited data

How the results depend on the processing

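Of 44 alternative values, 25 stayed within the tolerance set for them (the counting interval of a share, 1.5 times a count or ratio, the spread between replicates of a median, 0.1 for rho) and 19 moved. The shares of peaks shared between lists, the ratio of replicate enrichment (1.33 to 1.48) and rho (0.80 to 0.85) were among the first. With each replicate list in turn, the densest 1-Mb stretch held 20 to 40 peaks, the median distance was 25619.5 to 48649 bp, the share with a near neighbour 14.2 to 18.9%, the median width 324 to 357 bp, the median enrichment 5.14 to 5.38-fold and the middle share 36.1 to 37.5%. In the better-scoring 50% of the combined list these were 36 peaks, 37157 bp, 17.4%, 394 bp and 4.76-fold. Among peaks held by both replicates they were 19 peaks, 53816 bp, 428 bp and 5.79-fold. These lists hold fewer or stronger peaks by construction. A near neighbour within 1000 bp was found for 7.74% and within 5000 bp for 49%. A central stretch of 50% of the length, longer by construction, held 58.8%. With grouped peaks counted once, an alternative chosen after seeing the data, the middle share was 39.2% and the densest stretch held 48. No paired analysis was possible because each list already sets control tags against ChIP tags within a peak, and no result comes from a test. With unknown depth, absence from a list does not show that a site was unbound.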
